A study of Mus musculus with 32 samples.

Results

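The interferon regulatory factor (IRF) genes of the mouse were examined in 2 genotypes of acute myeloid leukemia by ChIP-seq of 4 histone marks. The 8 genes *Irf1*, *Irf2*, *Irf3*, *Irf4*, *Irf5*, *Irf7*, *Irf8* and *Irf9* were taken by name, and all 8 were found among the 21938 protein-coding genes of the GENCODE M21 annotation (mm10) on chromosomes 1 to 19, X and Y. A promoter was the stretch from 1 kb upstream to 500 bp downstream of any annotated transcription start site (TSS), and each gene was followed to 60 kb beyond its ends. The marks were H3K4me3, which lies over active promoters, H3K4me1, which lies over enhancers, and the acetylation marks H3K9ac and H3K27ac, which lie over active regulatory DNA of both kinds.

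The leukemias were primary *MLL-AF9* leukemias in C57Bl/6 mice. Donors of both genotypes were homozygous for the *Kat2a* Flox allele, and both received the interferon inducer pIpC. *Kat2a* KO donors carried *Mx1-Cre* and *Kat2a* WT donors did not, and the *Mx1* promoter is itself driven by interferon. Bone marrow was collected weeks later, transformed with retroviral *MLL-AF9* and transplanted into irradiated recipients, so residual host cells may be present. The terminal marrow of 5 WT animals went into 1 pool and that of 4 KO animals into another, and each pool gave 2 ChIP replicates per mark. Both replicates thus come from the same animals, and every p-value below measures the spread between chromatin preparations and not between leukemias. The labels give 5000000 cells for each H3K4me3 and H3K9ac library and 500000 for each H3K27ac and H3K4me1 library.

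IRF proteins are transcription factors that share a DNA-binding domain and recognize interferon-stimulated response elements (ISRE). *Irf3* and *Irf7* encode the factors that nucleic acid sensors activate through the kinase Tbk1 to switch on type I interferon genes, and *Irf5* encodes a related factor downstream of Toll-like receptors. *Irf9* encodes the DNA-binding subunit of a complex that forms after interferon receptor signalling. *Irf1* encodes an interferon-induced activator and *Irf2* a factor that often opposes it. *Irf8* is required for monocyte and dendritic cell development, and its close relative *Irf4* is best known in B cells, plasma cells and dendritic cells.

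The sequences just upstream of the genes whose promoter marks are described most fully are shown first, from RefSeq on GRCm38.p6, the assembly that mm10 corresponds to. All 8 genes were matched, with 11 entries of 300 bases in all, each from 250 bases before to 50 bases after a start. Capitals mark matches to the ISRE core (GAAA, NN, GAAA without gaps), to the Stat-binding GAS motif TTCNNNGAA, or to the ETS-type motif GAGGAAGT, each searched on both strands.
Irf1 (chr11:53769764-53770063, plus strand): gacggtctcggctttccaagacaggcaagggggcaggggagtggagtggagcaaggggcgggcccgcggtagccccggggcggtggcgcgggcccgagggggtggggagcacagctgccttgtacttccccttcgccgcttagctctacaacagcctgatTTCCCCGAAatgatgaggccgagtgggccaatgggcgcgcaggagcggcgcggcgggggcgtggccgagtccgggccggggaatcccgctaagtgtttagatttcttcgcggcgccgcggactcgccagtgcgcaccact
Irf2 (chr8:46739495-46739794, plus strand): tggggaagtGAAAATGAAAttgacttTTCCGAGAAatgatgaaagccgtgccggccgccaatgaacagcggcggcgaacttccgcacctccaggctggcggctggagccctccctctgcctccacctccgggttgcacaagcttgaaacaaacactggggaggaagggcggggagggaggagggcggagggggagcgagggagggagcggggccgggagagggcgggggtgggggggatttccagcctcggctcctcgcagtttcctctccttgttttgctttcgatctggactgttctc
Irf7 (chr7:141266375-141266674, minus strand): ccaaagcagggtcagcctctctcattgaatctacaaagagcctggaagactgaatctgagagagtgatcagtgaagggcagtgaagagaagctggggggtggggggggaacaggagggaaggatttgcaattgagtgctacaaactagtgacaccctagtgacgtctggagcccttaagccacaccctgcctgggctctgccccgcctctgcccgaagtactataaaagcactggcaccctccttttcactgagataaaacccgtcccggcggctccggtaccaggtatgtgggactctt
Irf8 (chr8:120736108-120736407, plus strand): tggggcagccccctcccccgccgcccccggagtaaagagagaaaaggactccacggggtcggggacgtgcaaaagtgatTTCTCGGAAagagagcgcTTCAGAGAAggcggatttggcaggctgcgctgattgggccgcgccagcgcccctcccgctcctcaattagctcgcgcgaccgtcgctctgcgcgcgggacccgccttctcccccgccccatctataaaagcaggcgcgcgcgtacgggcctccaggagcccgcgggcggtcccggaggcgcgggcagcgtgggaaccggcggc
The *Irf1* entry held a GAS match, TTCCCCGAA, from -90 to -82 of the start. The *Irf8* entry held GAS matches at -171 to -163 (TTCTCGGAA) and at -153 to -145 (TTCAGAGAA). The *Irf2* entry held an ISRE match, GAAAATGAAA, at -241 to -232 and a GAS match, TTCCGAGAA, at -224 to -216. These motifs did not overlap, and none of the 3 motifs was found in the *Irf7* entry or in the 7 other entries. Over 32851 RefSeq promoter entries of the same length, 8.3% held a GAS match, 3.44% an ISRE match and 3.2% the ETS-type motif. The shown entries also differed in CpG content, with 38 CpG dinucleotides for *Irf8*, 32 for *Irf1*, 19 for *Irf2* and 7 for *Irf7*, against a median of 7 over all entries.

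The values are the fold enrichment that the peak caller gave at each peak summit, and the highest peak at any promoter of a gene was taken. The lists hold no read counts, so depth is unknown and a missing peak sets no upper limit on a mark. The 4 H3K9ac lists held 27657 to 33605 peaks and the 4 H3K4me3 lists 15685 to 23297, the lowest being WT replicate 2. Replicate 1 of H3K27ac and H3K4me1 had at most 0.0485% of its peaks at a q-value of 0.05 or lower in any list and was left out of the values below. The lists of replicate 2 were larger in KO than in WT, with 46047 against 29757 peaks for H3K27ac and 78042 against 45770 for H3K4me1. For H3K4me1 in replicate 2, 34.3% of the WT peaks and 83.6% of the KO peaks had a q-value of 0.05 or lower. Their median widths were 215 bp in WT and 425 bp in KO. For H3K27ac these shares were 87.6% in WT and 92.4% in KO. The *Kat2a* promoter carried H3K9ac in all 4 libraries (WT replicate 1 at 8.0, WT replicate 2 at 4.58, KO replicate 1 at 7.48, KO replicate 2 at 11.8), and a promoter mark does not read the deleted exons. Of 10 myeloid marker genes, all 10 had an H3K9ac promoter peak in both WT libraries and 8 in both KO libraries. Over all 10 genes, with a missing peak adding nothing, the fold enrichment summed to 94.3 and 125 in the WT libraries and to 63.3 and 93.6 in the KO libraries. For H3K27ac in replicate 2 the sum was lower in WT, at 58.6, than in KO, at 102, where the list was larger. Of 6 B cell genes, 1 had H3K9ac in every library and 5 in none, *Cd79a* and *Ms4a1* among them. Of 6 erythroid genes, 1 had H3K9ac in both WT libraries and 3 in both KO libraries, with a summed fold enrichment of 11.4 to 14.7 in WT and 16.4 to 26.0 in KO, and *Gata1* and *Hbb-bt* had none. Of 4 plasmacytoid dendritic cell genes, 2 had H3K9ac and 3 had H3K4me3 in every library, and *Siglech* had neither. The part of these cell types in the IRF values was not tested. The T cell gene *Cd3e* and 4 of the 5 other T cell genes had no H3K9ac peak. In pooled marrow, fewer cells of a type and less of a mark per cell cannot be told apart.

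All 8 IRF promoters carried H3K9ac in all 4 libraries, whereas 49.4% of protein-coding genes did. H3K4me3 was present in all 4 libraries at 6 of the 8, against 46.7% of genes, and the exceptions were *Irf4* and *Irf8*. H3K27ac lay at the same 6 promoters in replicate 2 of both genotypes, against 43.9% of genes. H3K4me1 was listed in replicate 2 of both genotypes at *Irf2*, *Irf3*, *Irf5* and *Irf8*, which is 4 of 8 against 14.4% of genes, but at the outermost TSS of the gene only at *Irf5*. At *Irf8* these were different places, with the summit 14983 bp past the outermost TSS in WT and 1183 bp past it in KO. They differed at *Irf3* too, with the summit at 2974 bp from that TSS in WT and at -720 bp in KO. At *Irf2* both summits lay in the same region far inside the gene, at 53758 bp in WT and 52390 bp in KO.

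The H3K9ac level separated the family into a higher group of 6 and a lower pair. On the log2 scale, relative to the library median over all genes with a promoter peak, *Irf1* averaged 1.11 ± 0.46 (SD, n = 4 libraries), *Irf2* 0.97 ± 0.33, *Irf7* 0.44 ± 0.48, *Irf5* 0.33 ± 0.23, *Irf9* 0.04 ± 0.30 and *Irf3* -0.18 ± 0.25. *Irf8* averaged -1.32 ± 0.47 and *Irf4* -1.46 ± 0.15. In this order the ranges of neighbours overlapped throughout, except between *Irf3*, whose lowest library stood at -0.55, and *Irf8*, whose highest stood at -0.77. The H3K4me3 order was similar at the top, with *Irf2* at 0.49 ± 0.32 and *Irf1* at 0.29 ± 0.12, and every neighbouring pair among the 6 genes overlapped.

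**Figure D1:**
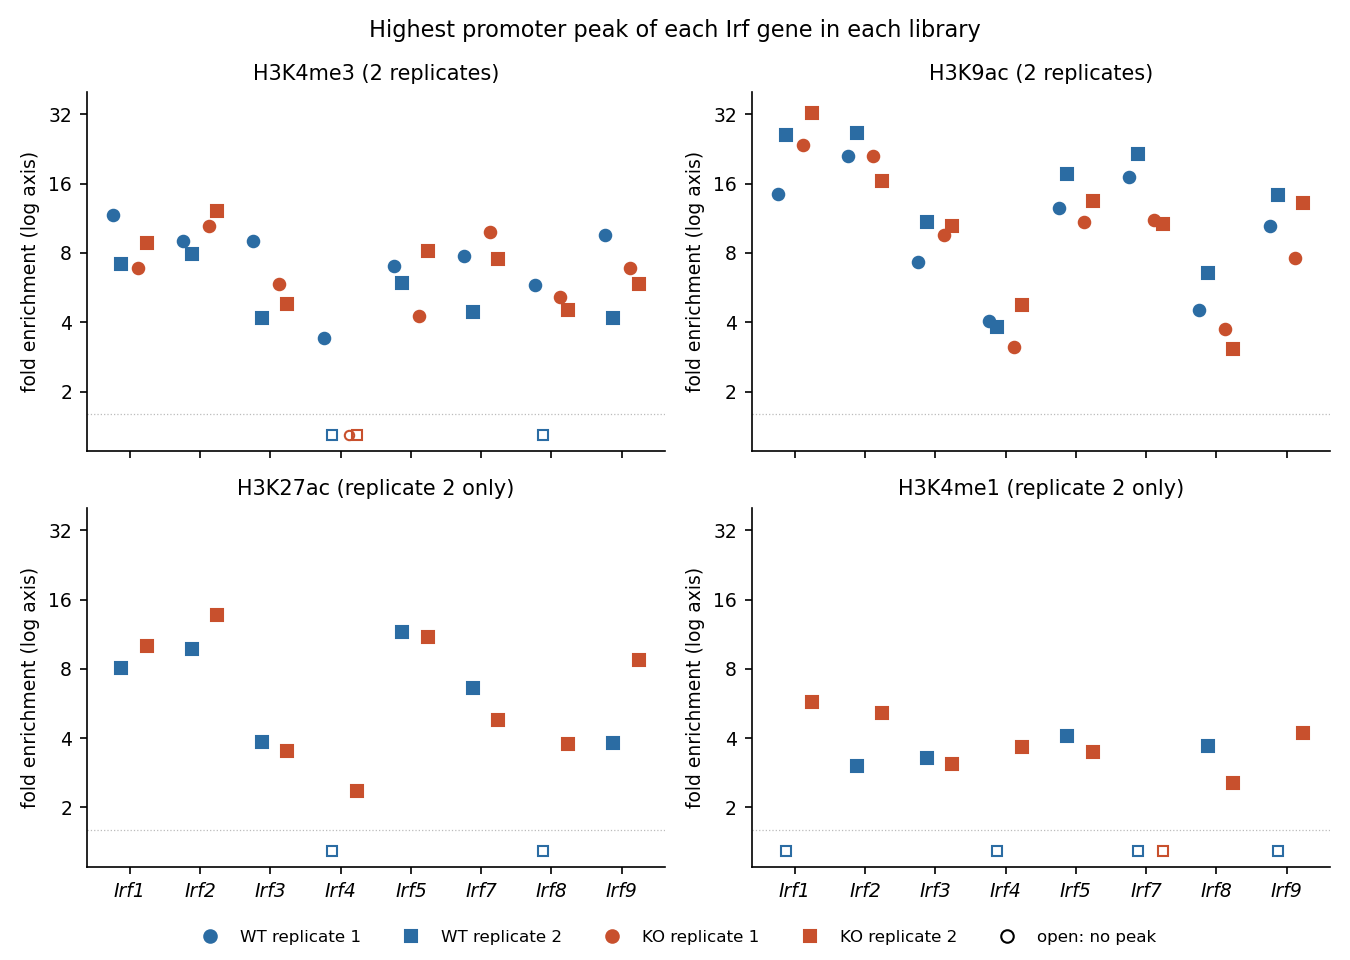
Highest promoter peak of each IRF gene, as fold enrichment on a log axis, in each library of the 4 marks. Circles are replicate 1, squares replicate 2, blue WT and red KO, and open symbols below the dotted line mark a library with no peak. H3K9ac is listed at all 8 genes in all 4 libraries, lowest at *Irf4* and *Irf8*, and no H3K4me1 is listed at *Irf7*.

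Whether the loss of *Kat2a*, an acetyltransferase for H3K9, went with a different level of the marks at the IRF promoters was asked with limma on log2 fold enrichment, centred on each library's median, over all genes with a peak in all 4 libraries. None of the 10837 genes tested for H3K9ac had an adjusted p under 0.05 (background 0%), and 393 had an unadjusted p under 0.05. For H3K4me3 it was 0 of 10247 genes (background 0%), with 563 at an unadjusted p under 0.05. None of the 8 IRF genes had an unadjusted p under 0.05 in either fit, and their adjusted p was 1.0 for H3K9ac and at least 0.91 for H3K4me3. The median H3K9ac difference (KO minus WT, log2) was -0.20 over the 8 genes and 0.01 over all genes tested. With 2 libraries per genotype an exact permutation test of a single gene cannot give a p below 0.33.

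Among the factors activated by nucleic acid sensors, *Irf7* had the most negative H3K9ac difference of the family. Its promoter, at the start of the gene on the minus strand of chromosome 7 (141262706 to 141266481), stood at 17.2 and 21.5 in WT against 11.1 and 10.7 in KO. Both WT libraries lay above both KO libraries. The difference was -0.72 ± 0.37 (SE, log2, n = 2 and 2), with a 95% interval from -1.47 to 0.02 (unadjusted p = 0.0564, adjusted p = 1.0, limma), and 2.3% of genes were as low or lower. The H3K27ac value in replicate 2 was also lower in KO, at 4.80 against 6.61, which is -0.95 after centring and the 3.9th percentile of 9634 genes. H3K4me3 differed the other way, at 7.76 and 4.44 in WT against 9.82 and 7.51 in KO (0.61 ± 0.37, interval -0.14 to 1.36), where the genotypes overlapped as listed and both KO libraries lay above both WT libraries after centring.

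*Irf3* and *Irf5* showed smaller differences. *Irf3* H3K9ac stood at 7.30 and 10.9 in WT against 9.60 and 10.5 in KO (0.26 ± 0.37), with the genotypes overlapping. The *Irf3* peaks also lay over the promoter of *Bcl2l12*, which starts on the opposite strand beside it, so its values belong to both genes. *Irf5* H3K9ac stood at 12.5 and 17.7 in WT against 10.9 and 13.5 in KO (-0.20 ± 0.37), again overlapping. *Irf5* had the broadest promoter acetylation of the family in KO, with 3133 and 3737 bp under H3K9ac peaks.

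For *Irf9*, the interferon receptor effector, H3K9ac was 10.5 and 14.3 in WT against 7.57 and 13.2 in KO (-0.20 ± 0.37), within the spread of the libraries. H3K27ac in replicate 2 was 3.80 in WT and 8.76 in KO, a centred difference of 0.72 (92.1st percentile) with no replicate behind it. Of all genes, 2.5% were higher in KO by at least 1 (log2) in this comparison and 3.32% were lower by at least 1, and none of the 6 IRF genes with both values was among them. Without centring, the median of all genes was 0.46, 1399 of 9634 genes were higher by at least 1 and 36 lower, and *Irf9* was among the higher. For H3K4me1 these shares were 0.792% and 0.444%, and none of the 4 IRF genes with both values was among them.

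The activator *Irf1* and the repressor-type *Irf2* had the highest mean promoter H3K9ac over the 4 libraries, with ranges that overlapped each other and that of *Irf7*. *Irf1* H3K9ac was 14.4 and 25.9 in WT against 23.6 and 32.3 in KO. After centring, both KO libraries lay above both WT libraries, with a difference of 0.60 ± 0.38 (interval -0.16 to 1.36, unadjusted p = 0.119, limma). That difference was 0.19 without WT replicate 1 and 1.02 without WT replicate 2. *Irf2* H3K9ac was 21.1 and 26.6 in WT against 21.1 and 16.5 in KO (-0.26 ± 0.37), overlapping. *Irf2* H3K4me3 was 8.99 and 7.90 in WT against 10.5 and 12.2 in KO, so both KO libraries lay above both WT libraries (0.48 ± 0.36, interval -0.25 to 1.22, and 0.27 without WT replicate 1). The *Irf2* peaks also lay over the promoter of the divergent noncoding gene *Gm16675*.

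Separation of the libraries by genotype was counted in the family and over all genes tested. For H3K9ac, both WT libraries lay above both KO libraries at *Irf7* and *Irf8*, which is 2 of 8 genes against 14.6% of all genes. Both KO libraries lay above both WT libraries at *Irf1* alone, 1 of 8 against 16.6%. For H3K4me3 the counts were 1 of 6 (*Irf1*, WT above KO) against 17.6% and 2 of 6 (*Irf2* and *Irf7*, KO above WT) against 17.1%.

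**Figure D2:**
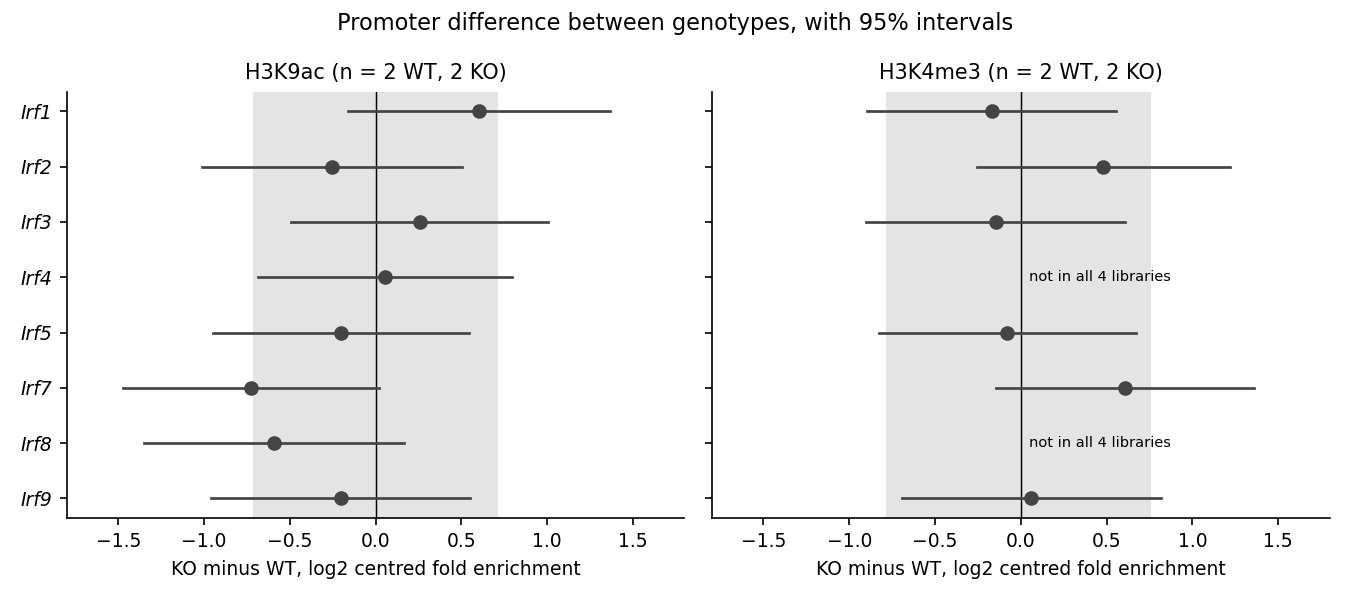
KO minus WT difference in centred log2 fold enrichment at each IRF promoter for H3K9ac (left) and H3K4me3 (right), with points at the limma estimate and lines for its 95% interval (n = 2 WT and 2 KO libraries). The grey band holds the central 95% of all genes tested, from -0.71 to 0.71 for H3K9ac and from -0.78 to 0.75 for H3K4me3, and every interval crosses 0.

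*Irf4* had the lowest mean promoter H3K9ac over the 4 libraries, with a range that overlapped that of *Irf8*, which was lower in KO replicate 2. H3K9ac was listed there at 4.07 and 3.83 in WT against 3.13 and 4.73 in KO, between percentiles 4.1 and 11.8 of genes with a peak in the same library. H3K4me3 was listed in WT replicate 1 only, at 3.41, and H3K27ac and H3K4me1 in KO replicate 2 only, at 2.35 and 3.66. Of all protein-coding genes, 448 had H3K4me3 in WT replicate 1 alone, which was the longest of the 4 lists. When equal numbers of peaks were taken from each library, no H3K27ac peak remained at *Irf4*.

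*Irf8*, the monocyte and dendritic cell regulator, lies on the plus strand of chromosome 8 (120736358 to 120756694). Its H3K9ac peaks differed between genotypes more in listed width than in height, and these 2 measures are not independent. The highest promoter peak stood at 4.51 and 6.52 in WT against 3.74 and 3.07 in KO, a difference of -0.59 ± 0.37 (interval -1.35 to 0.17, unadjusted p = 0.123, limma) with both WT libraries above both KO libraries. That difference was -0.33 without WT replicate 2, -0.30 without KO replicate 2 and -0.88 without KO replicate 1. In WT replicate 1 the peaks at its promoters covered 4389 bp and in WT replicate 2 they covered 3021 bp. In KO replicate 1 they covered 451 bp and in KO replicate 2 they covered 714 bp. Within their libraries these widths were at the 97.3rd and 89.0th percentile in WT and at the 7.4th and 14.4th percentile in KO, where the median gene had 1311 to 1526 bp. The heights were low in every library, at the 14.3rd and 22.2nd percentile in WT and the 8.5th and 2.1st in KO. For such low peaks the listed width can fall with the height, and the 2 were not separated.

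The width was therefore fitted for all genes in the same way, a test that was added after the *Irf8* values had been seen. The difference at *Irf8* was -2.51 ± 0.28 (SE, log2 of summed width, n = 2 and 2), with an interval from -3.24 to -1.78, and it was the third lowest of 10837 genes. Its unadjusted p was 0.000361 and its adjusted p 0.296 (limma), so it did not pass the test. No gene had an adjusted p under 0.05 (background 0%), and 573 had an unadjusted p under 0.05. Both WT libraries lay above both KO libraries for 15.9% of all genes, and among the 8 IRF genes for *Irf8* alone. Both KO libraries lay above both WT libraries for 2041 of the 10837 genes, and among the IRF genes for *Irf3* and *Irf9*. The other 7 IRF genes differed by -0.44 to 0.19. With only the bases under peaks from 1 kb before to 5 kb after the outermost start counted, the 4 libraries gave 4408 and 3311 bp in WT against 797 and 1270 bp in KO (-1.77 ± 0.25). The WT H3K9ac lists also held more peaks than the KO lists, and with equal numbers of peaks the difference was -2.52 ± 0.28.

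**Figure D3:**
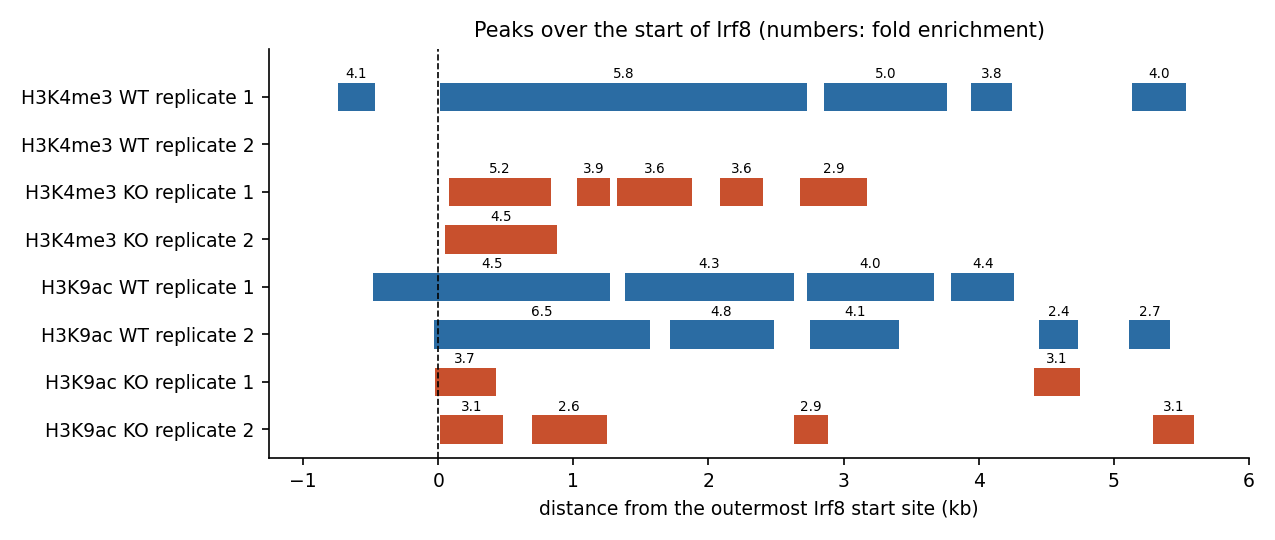
Peaks of H3K4me3 and H3K9ac over the start of *Irf8* in each library, by distance from its outermost start site in kb, with the fold enrichment above each bar (blue WT, red KO). The 2 WT H3K9ac libraries cover 4408 and 3311 bp of the stretch from -1 to 5 kb and the 2 KO libraries 797 and 1270 bp, and H3K4me3 WT replicate 2 has no peak.

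None of the other marks covered more of the start of *Irf8* in every WT library than in every KO library. H3K4me3 stood at 5.82 in WT replicate 1, was not listed in WT replicate 2, and stood at 5.15 and 4.53 in KO. The absence in WT replicate 2 alone was shared by 656 protein-coding genes, and that library had the fewest H3K4me3 peaks. H3K4me3 covered 4207 bp from -1 to 5 kb in WT replicate 1, 2366 bp in KO replicate 1 and 832 bp in KO replicate 2. H3K27ac was listed in KO replicate 2 alone, at 3.78 over 243 bp, as it was in KO alone at *Irf4*. Promoters with H3K27ac in replicate 2 of KO only made up 5.85% of all genes, and with equal numbers of peaks no IRF gene was among them. H3K4me1 in replicate 2 covered 0 bp from -1 to 5 kb of *Irf8* in WT and 639 bp in KO, where the list was larger. Over all promoters of a gene, H3K4me1 in KO only was listed at *Irf1*, *Irf4* and *Irf9*, 3 of 8 against 22.9% of all genes.

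Among the places around *Irf8* with acetylation in both genotypes were 3 upstream clusters and a downstream element with H3K9ac. From 51.6 to 49.3 kb upstream, H3K27ac stood at 7.28 in WT and 7.82 in KO. There H3K9ac stood at 4.83 and 5.94 in WT against 3.57 and 4.52 in KO, and the region also covers the start of the noncoding transcript *Gm33142*. About 39 kb upstream, H3K9ac stood at 2.28 and 2.61 in WT against 3.11 and 4.67 in KO. Both KO libraries lay above both WT libraries, as they did for 16% of all distal regions. The difference was 0.72 ± 0.38 (interval -0.04 to 1.47, unadjusted p = 0.0614, limma). H3K27ac was listed there in KO alone, at 4.65. About 34 kb upstream, H3K27ac stood at 4.29 in WT and 5.41 in KO. Without H3K9ac, H3K27ac was also listed from -53.8 to -52.6 kb (3.97 in WT, 3.53 in KO) and from -16.9 to -16.4 kb (3.05 in WT, 3.30 in KO).

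The downstream element, about 56 kb past the start and 36 kb past the end of the gene, had H3K27ac at 5.36 in WT and 7.75 in KO. H3K9ac there was not listed in WT replicate 1 and stood at 3.18 in WT replicate 2, 2.52 in KO replicate 1 and 5.25 in KO replicate 2. H3K4me1 was listed over it in KO, at 4.45 and 4.77 in neighbouring peaks, and in WT at 3.69 just before it. The gene and all these elements lie inside the annotated read-through gene *Gm20388*, which spans the whole locus.

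**Figure D4:**
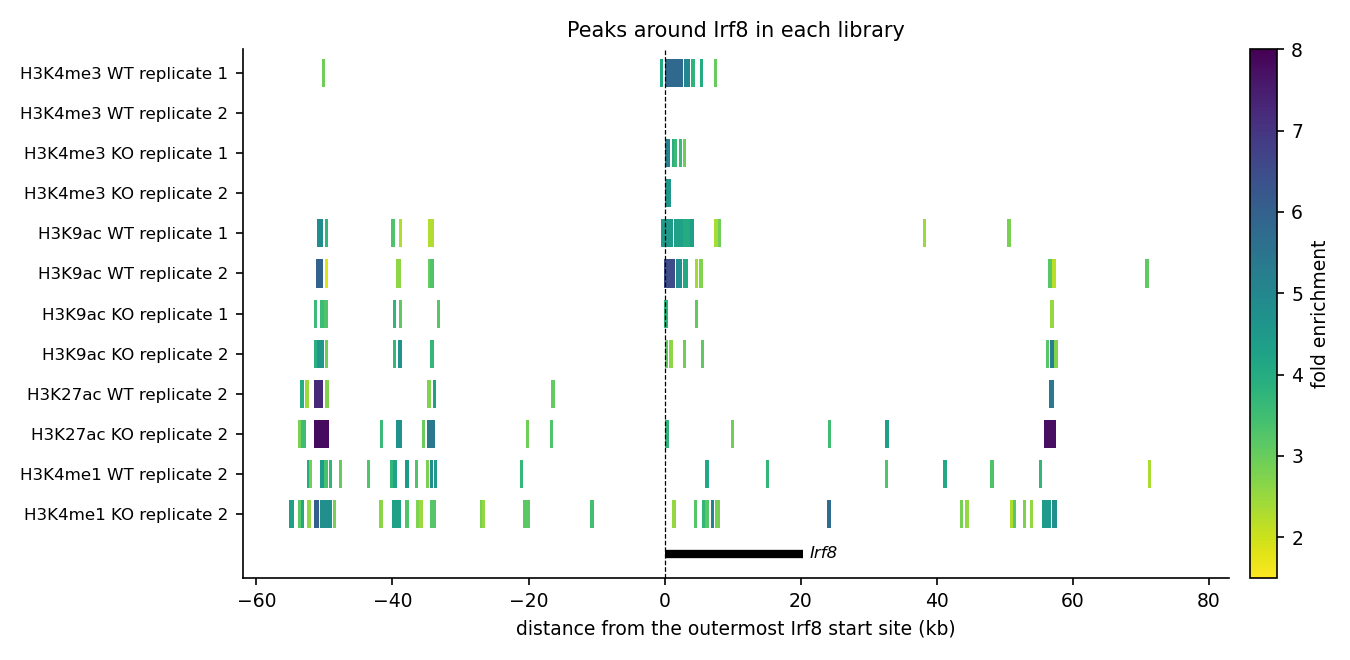
Peaks around *Irf8* in the 12 libraries used, by distance from the outermost start site in kb, with colour for fold enrichment and the gene as a black bar. Peaks are drawn at least 0.5 kb wide. Acetylation recurs near -50, -39, -34 and 56 kb in both genotypes. From -1 to 5 kb, H3K9ac peaks cover 4408 and 3311 bp in the WT libraries and 797 and 1270 bp in the KO libraries.

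The 200 bases around the H3K27ac summits of the KO library are shown for the element upstream at -50.4 kb and the element downstream at 56.7 kb, since these are the strongest acetylated sites of the locus outside the promoter. The capitals mark motifs as above.
Irf8 -50.4 kb (chr8:120685895-120686094, plus strand): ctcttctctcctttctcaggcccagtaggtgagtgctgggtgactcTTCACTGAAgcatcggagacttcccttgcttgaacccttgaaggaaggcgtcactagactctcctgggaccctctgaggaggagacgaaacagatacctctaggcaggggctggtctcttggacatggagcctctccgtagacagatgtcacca
Irf8 56.7 kb (chr8:120792959-120793158, plus strand): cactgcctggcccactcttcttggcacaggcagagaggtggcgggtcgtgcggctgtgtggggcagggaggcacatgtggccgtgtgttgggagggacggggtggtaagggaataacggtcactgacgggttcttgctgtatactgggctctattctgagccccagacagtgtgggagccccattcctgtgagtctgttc
The upstream window held a GAS match, TTCACTGAA, at bases 47 to 55. The downstream window held none of the 3 motifs. Over the 28931 H3K27ac peaks of that library outside promoters, 5.87% of windows of this length held a GAS match, 2.68% an ISRE match and 1.8% the ETS-type motif. The upstream peak covers the start of *Gm33142* and was therefore not among them.

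Beyond the promoters, an acetylated distal region was an H3K9ac region with a peak in both replicates, away from every promoter, that overlapped H3K27ac of the same genotype. Within 60 kb of the IRF genes there were 13 such regions in WT and 12 in KO, and in the whole genome 5381 and 5414. *Irf2* had the most, 7 in WT and 6 in KO, which placed it at the 99.4th and 98.8th percentile of protein-coding genes. It is also the longest of the 8 genes (46739732 to 46847458), so the stretch searched was the longest. Some of its regions lay inside the gene, and the percentiles were not adjusted for gene length. *Irf8* had 2 in WT and 3 in KO, *Irf5*, *Irf7* and *Irf9* had 1 in each genotype, and *Irf3* had none in either. *Irf4* had none with H3K27ac, and its H3K9ac region in WT lay 51 kb upstream within *Dusp22*, where KO replicate 2 had H3K27ac at 5.65. *Irf1* had 1 in WT and none in KO. Its 2 distal H3K9ac regions in WT, near -34 and 16 kb, were also listed in KO replicate 2, at 4.29 and 4.73, and missing from KO replicate 1. The region near 16 kb had H3K27ac in both genotypes, at 5.15 in WT and 4.89 in KO.

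**Figure D5:**
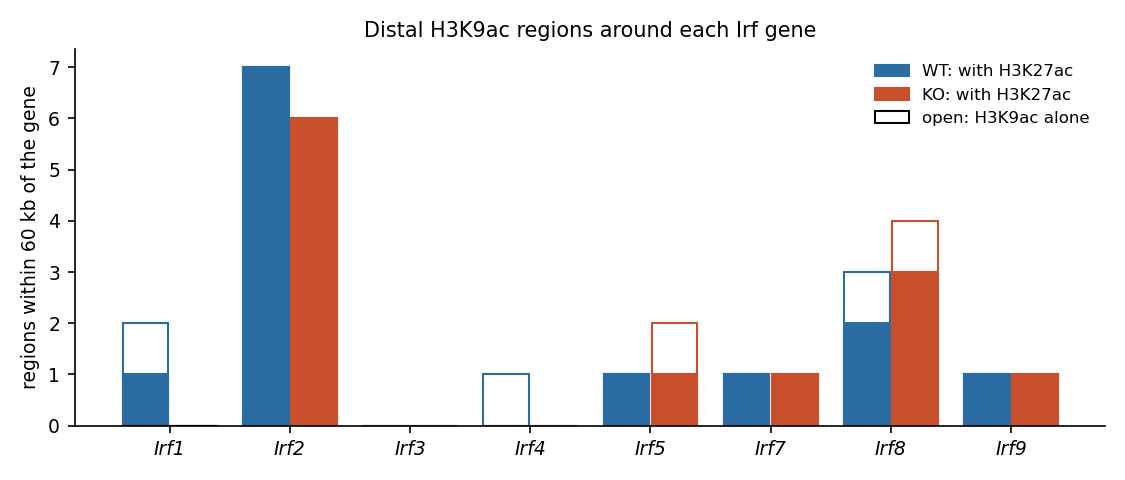
Distal H3K9ac regions within 60 kb of each IRF gene in WT (blue) and KO (red), counted from 0. Filled bars are regions that overlap H3K27ac of the same genotype and open bars those without it, with *Irf2* at 7 and 6 filled.

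The H3K9ac level could be fitted at 4361 distal regions with a peak in all 4 libraries, 10 of them near IRF genes. No region had an adjusted p under 0.05 (background 0%), and 157 had an unadjusted p under 0.05. *Irf2* had 5 of the 10. The strongest, 53 kb upstream within *Gm16675* (chromosome 8, 46686703 to 46687380), had WT values of 11.7 and 9.96 and KO values of 12.7 and 9.75 (0.12 ± 0.39). H3K27ac there stood at 7.16 in WT and 13.7 in KO. The 4 others, inside *Irf2* or downstream of it, differed by -0.24 to 0.19, and in all 5 the genotypes overlapped.

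*Irf7* showed opposite signs at its promoter and its distal region. The region from 3.3 to 2.1 kb upstream, in the neighbouring gene *Cdhr5* (chromosome 7, 141268549 to 141269764), stood at 4.01 and 7.51 in WT against 8.12 and 10.9 in KO. Both KO libraries lay above both WT libraries, as they did for 16% of all distal regions. The difference was 0.86 ± 0.38 (interval 0.10 to 1.61, unadjusted p = 0.0276, adjusted p = 1.0, limma), and 98.9% of distal regions were lower. H3K27ac overlapped it in both genotypes, at 7.24 in WT and 8.07 in KO. H3K4me3 was also listed there, at 5.68 in WT replicate 1, 2.04 in KO replicate 1 and 4.00 in KO replicate 2, but not in WT replicate 2. H3K4me1 in replicate 2 was listed there in KO alone, at 3.33. The difference between promoter and distal region was not tested. The 200 bases around its summit in KO replicate 2, on the strand of *Irf7*, held 10 CpG dinucleotides and none of the 3 motifs.
Irf7 -2.9 kb (chr7:141269283-141269482, minus strand): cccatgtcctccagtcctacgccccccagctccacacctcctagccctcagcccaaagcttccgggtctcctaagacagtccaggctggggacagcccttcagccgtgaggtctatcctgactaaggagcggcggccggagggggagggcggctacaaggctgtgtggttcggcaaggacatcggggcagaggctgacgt
Over the 13406 H3K9ac peaks of that library outside promoters, 5.99% of such windows held a GAS match and 3.45% an ISRE match.

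The remaining distal regions lay near *Irf5*, *Irf8* and *Irf9*. The *Irf5* region 3.5 to 2.5 kb upstream stood at 4.98 and 2.69 in WT against 3.88 and 6.63 in KO (0.55 ± 0.40), overlapping. The *Irf9* region 46 kb upstream stood at 4.66 and 6.39 in WT against 4.15 and 3.76 in KO. The difference was -0.39 ± 0.38 (interval -1.15 to 0.37, unadjusted p = 0.306, limma). Both WT libraries lay above both KO libraries. The opposite separation held for 16% of all distal regions, and the share separated in this direction was not counted. Of the cluster about 50 kb upstream of *Irf8*, only the weaker side peak from -50.04 to -49.42 kb could be fitted as distal, at 3.69 and 1.83 in WT against 3.31 and 2.93 in KO (0.34 ± 0.40), overlapping. The stronger peak beside it, which covers the start of *Gm33142*, was not in that fit. Its listed values, 4.83 and 5.94 in WT against 3.57 and 4.52 in KO, were neither centred nor tested.

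The genes that act with the IRF factors were followed as a list of 49 genes in 6 roles: sensors and adaptors, receptors and kinases, signal transducers, inhibitors, cofactors and interferon-induced genes. Of these 38 were tested for H3K9ac and 34 for H3K4me3, and none had an adjusted p under 0.05 in either direction (limma). Of the 38, 1 had an unadjusted p under 0.05 for H3K9ac, and of the 34, 3 did for H3K4me3. The median H3K9ac difference of the list was 0.01, like that of all genes tested, with 19 genes positive and 19 negative. For H3K4me3 the median was 0.19 over the list and 0.0026 over all genes tested, with 21 genes positive and 13 negative. *Psmb9* and *Tap1* had identical values in each library (differences of 0.31 for H3K9ac and 0.32 for H3K4me3). They were counted as separate genes in these medians and counts. The 3 genes with an unadjusted p under 0.05 for H3K4me3, named after their values were seen, were the kinase gene *Jak1* (1.05) and the cofactor genes *Irf2bpl* (0.94) and *Irf2bp1* (-0.88). The 2 largest positive H3K9ac differences belonged to *Ifitm3*, an interferon-induced antiviral membrane protein (0.90 ± 0.38, unadjusted p = 0.0215), and *Ifngr1*, a subunit of the interferon gamma receptor (0.52 ± 0.37). The 2 largest negative ones belonged to *Tlr9*, a sensor of unmethylated DNA (-0.59 ± 0.38), and *Psmb8*, a subunit of the immunoproteasome (-0.58 ± 0.38). With single libraries left out these ranged from 0.50 (without WT replicate 2) to 1.31 at *Ifitm3* and from 0.24 (without WT replicate 1) to 0.81 at *Ifngr1*. They ranged from -1.0 to -0.18 (without WT replicate 2) at *Tlr9* and from -1.12 to -0.0335 (without KO replicate 1) at *Psmb8*.

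By role, and beside 49.4% of all genes for H3K9ac and 46.7% for H3K4me3, all 7 receptors and kinases carried H3K9ac and H3K4me3 in every library. Of the 13 sensors and adaptors, 12 carried H3K9ac in every library, as did 5 of the 6 cofactors and all 3 inhibitors. Of the 18 interferon-induced genes, 17 were annotated as protein-coding and 9 carried H3K9ac in every library. *Mx1*, *Ifi44* and *Ifit3* carried neither H3K9ac nor H3K4me3 in any library.

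Genes whose promoter pattern was most like that of *Irf8* and *Irf4* were found by the Euclidean distance of the centred log2 fold enrichments over the 12 libraries, among genes with peaks in exactly the same libraries. For *Irf8*, with a peak in 10 of the 12 libraries, 29 genes could be compared, and the nearest were *Ttc39a* at 1.09 and the pair *Ccs* and *Ccdc87* at 1.11 each. For *Irf4*, with a peak in 7, only 7 genes could be compared, and the nearest were *Hesx1* at 1.01, *Gm20425* at 1.06 and *Tlr7* at 1.12.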

How the data were processed

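ChIP-seq of H3K4me3, H3K9ac, H3K27ac and H3K4me1 was analysed in 16 libraries, 2 per mark and genotype. Per the methods and the submitters' processing notes, the authors used BWA for alignment against mm10 and MACS2 for peak calling, library by library. Each deposited peak has a fold enrichment over local background at its summit (a ratio). The deposited p-value and q-value are given as −log10. The deposited score, not used here, is a whole number made from the p-value. Depth is unknown. Input and single-cell libraries were not analysed here. Versions of BWA and MACS2 are not given in the sources used here.

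The IRF genes, the pathway and marker lists and the tests were chosen with earlier results of these data known. Which replicate of H3K27ac and H3K4me1 the study set aside is not stated, and replicate 2 was used alone for both. H3K9ac and H3K4me3 were fitted with limma 3.58.1 (R 4.3.3) and Benjamini-Hochberg adjustment over all genes or regions, as log2 of the deposited fold enrichment centred on each library's median. Alternatives were no centring, quantile normalization, the replicate number as a block, a q-value of at most 0.01, equal numbers of peaks, the outermost TSS, an overlap of at least 200 bp, distal regions at least 5 kb from any TSS, windows of 30 kb, an overlap of at least 50% between marks, and each library left out. All 8 IRF genes were named. Of the pathway list, genes passing the test were to be named, or else the 2 largest differences in each direction, and for *Irf8* and *Irf4* the 3 nearest genes. The width fit and its alternatives were added after the data had been seen. Scripts used Python 3.11.15, numpy 2.4.6 and pandas 2.3.3, overlaps were checked against bedtools 2.31.1, and the fit was tested on simulated data.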

Additional observations from a re-analysis of the deposited data

How the results depend on the processing

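No gene or distal region passed an adjusted p of 0.05 (limma) in the H3K9ac promoter, H3K4me3 promoter, H3K9ac distal or H3K9ac width fit under any alternative, except that leaving out single libraries gave 0 to 2 genes in the H3K9ac promoter fit, with 2 lower in KO without WT replicate 1. With 1 library left in a genotype, that library is assumed to vary like the others. The replicate number as a block gave 0 calls in each of the 4 fits. Deviations of same-numbered libraries correlated at 0.133 (H3K9ac promoters), -0.0015 (H3K4me3 promoters), 0.171 (H3K9ac distal) and 0.167 (H3K9ac width) over genes or regions, and with only 2 numbers this does not show pairing.

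H3K4me1 at the promoter in both genotypes, listed for 4 IRF genes, was listed for 0 at a q-value of at most 0.01, for 1 at the outermost TSS and for 1 with an overlap of 200 bp. The IRF median difference of H3K27ac was -0.36 as reported and with equal numbers of peaks, -0.56 at the outermost TSS and 0.13 without centring, where the direction changed. For H3K4me1 it was -0.20 as reported, -0.25 with equal numbers of peaks, -0.53 at the outermost TSS and -0.16 without centring. Windows of 30 kb held 8 distal regions in WT and 6 in KO. The KO minus WT count, -1 as reported, was -2 with windows of 30 kb, 0 at a q-value of at most 0.01 and 2, the other way, with equal numbers of peaks. The cause was not tested.

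For single genes the sign changed without centring at *Irf4* for H3K9ac (-0.0353) and for width at *Irf2* (-0.0887), *Irf3* (-0.0287) and *Irf4* (-0.0206), and for width at *Irf5* at the outermost TSS (0.0145). With single libraries left out, H3K9ac differences ranged from -0.58 to 0.0686 at *Irf2*, -0.0269 to 0.54 at *Irf3*, -0.10 to 0.21 at *Irf4*, -0.45 to 0.0395 at *Irf5* and -0.46 to 0.0505 at *Irf9*. H3K4me3 differences ranged from -0.44 to 0.15 at *Irf3*, -0.39 to 0.23 at *Irf5* and -0.23 to 0.35 at *Irf9*. Width differences ranged from -0.0013 to 0.17 at *Irf2*, -0.57 to 0.87 at *Irf4*, -0.19 to 0.0633 at *Irf5* and -0.90 to 0.0166 at *Irf7*. Distal differences ranged from -0.25 to 0.50, -0.38 to 0.27, -0.15 to 0.53 and -0.81 to 0.33 at the *Irf2* regions starting at -53.0, 38.1, 102.5 and 104.7 kb, from -0.10 to 1.20 at *Irf5* and from -0.38 to 1.05 at the *Irf8* region 50 kb upstream. The *Irf8* width difference lay between -2.78 and -1.70 under all its alternatives, and its adjusted p between 0.184 and 0.766. The lists carry no depth, so a missing peak cannot be told apart from a weak mark.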
